A study of Mus musculus with 6 samples.

Results

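The genes described here encode subunits of the BAF complexes, the SWI/SNF chromatin remodellers of mammals. The 10 members were the count-table rows whose gene symbol was Smarca4, Smarca2, Smarcc1, Smarcc2, Smarcd1, Smarcd2, Smarcd3, Arid1a, Arid1b or Actl6a. All 10 were found among 23238 symbols, and all 10 passed the filter on low counts. The samples were 6 libraries of mouse embryonic stem cells of strain 129/Ola, 3 from a stable line with EGFP (the control) and 3 from a stable line with EWS-OCT-4. The growth notes write the second construct as EWS OCT4A-GFP, in which OCT-4A is joined to EWS, the protein rearranged in Ewing sarcoma, and name both lines Niwa lines. Every library, controls included, came from cells in LIF medium given doxycycline at 1 µg/ml, which lowers endogenous OCT-4, so no library shows either line before OCT-4 was lowered. The labels do not say which promoter drives the constructs or whether each line is 1 clone. Separate cultures are not stated for the triplicates either, so the p-values cover only sample-to-sample spread, possibly technical. The comparison asks how the subunit make-up differed between the EWS-OCT-4 line and the EGFP line, and rose and fell mean higher and lower in the EWS-OCT-4 line.

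A BAF complex uses the energy of ATP to slide or evict nucleosomes. Each complex carries either of a pair of exclusive ATPases and picks its other subunits from small families of paralogues, so the make-up of the complex differs between cell types. In mouse embryonic stem cells the complex is known for SMARCA4, SMARCC1, ARID1A, SMARCD1 and ACTL6A, whereas SMARCA2, SMARCC2 and SMARCD3 are known from differentiated cells.

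The EGFP libraries held 13239383 to 14935887 counts and the EWS-OCT-4 libraries 10978025 to 12281444. Within each line, replicate 3 differed from the other 2 far more than those differed from each other (chi-square over symbols divided by its degrees of freedom, 23.7 to 32.3 against 3.96 and 4.21). Pou5f1, the OCT-4 gene, had 5 to 13 counts in EGFP libraries and 18 to 36 in EWS-OCT-4 libraries. Whether tags of the fusion are counted at this gene is not given, so it does not check the labels. Of 10 stem cell markers, all 10 rose, with a summed level of 461 to 588 CPM (counts scaled to library size and TMM factor) in EGFP libraries and 5710.0 to 6309 CPM in EWS-OCT-4 libraries. Of 10 trophoblast markers, all 10 fell, from sums of 4809 to 5397 CPM to sums of 254 to 282 CPM, and Plac1 had no count in the EWS-OCT-4 line. The EGFP line, labelled embryonic stem cells, thus had low stem cell and high trophoblast marker levels. Of 7 primitive endoderm markers 4 were tested, of which 3 fell and 1 rose (sums of 104 to 123 against 5.54 to 6.63 CPM). Their EGFP sum was mostly Dab2 (79.4 ± 6.19 CPM) and Gata6 (31.2 ± 5.33 CPM). The marker that rose was Gata4, from 0.143 ± 0.149 to 2.08 ± 0.213 CPM. Of 6 neural markers 4 rose and 1 fell (27.1 to 43.9 against 83.4 to 105 CPM). The higher neural sum was mostly Sox1, which rose from 0.0217 ± 0.0375 to 49.6 ± 12.7 CPM. Tubb3 did not pass (23.8 ± 11.2 against 25.5 ± 0.971 CPM). Of 6 feeder fibroblast markers 4 were tested, of which Thy1 rose from 0.636 ± 0.489 to 17.9 ± 1.45 CPM and Col1a1, Col1a2 and Col3a1 did not pass, so the higher sum (20.8 to 27.3 against 3.90 to 7.37 CPM) was mostly Thy1. The part of these marker shifts in the differences below was not tested, and in bulk RNA fewer cells of a type and less RNA per cell cannot be told apart.

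Of the 10 members, 5 rose, 4 fell and 1, Arid1a, did not pass an adjusted p of 0.05 (edgeR's quasi-likelihood test, Benjamini-Hochberg over 13467 genes). Across all genes tested, 67.4% passed, 33.3% higher and 34.1% lower, so a call by itself was common in this comparison. Among the members 5 were called with a 2-fold or larger change, and 45.4% of all genes were. The median absolute log2 fold change was 0.99 for the members and 0.93 for all genes, and the median signed log2 fold change was 0.23 and -0.0042. Values of the lines did not overlap for 9 members, nor for 72.7% of all genes. The sizes of the members' changes were thus near the background, and the members are described below by which paralogue of each family rose and which fell. In replicates 1 and 2 alone, 6 members rose and 4 fell, in a fit that called 75.6% of all genes.

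**Figure D1:**
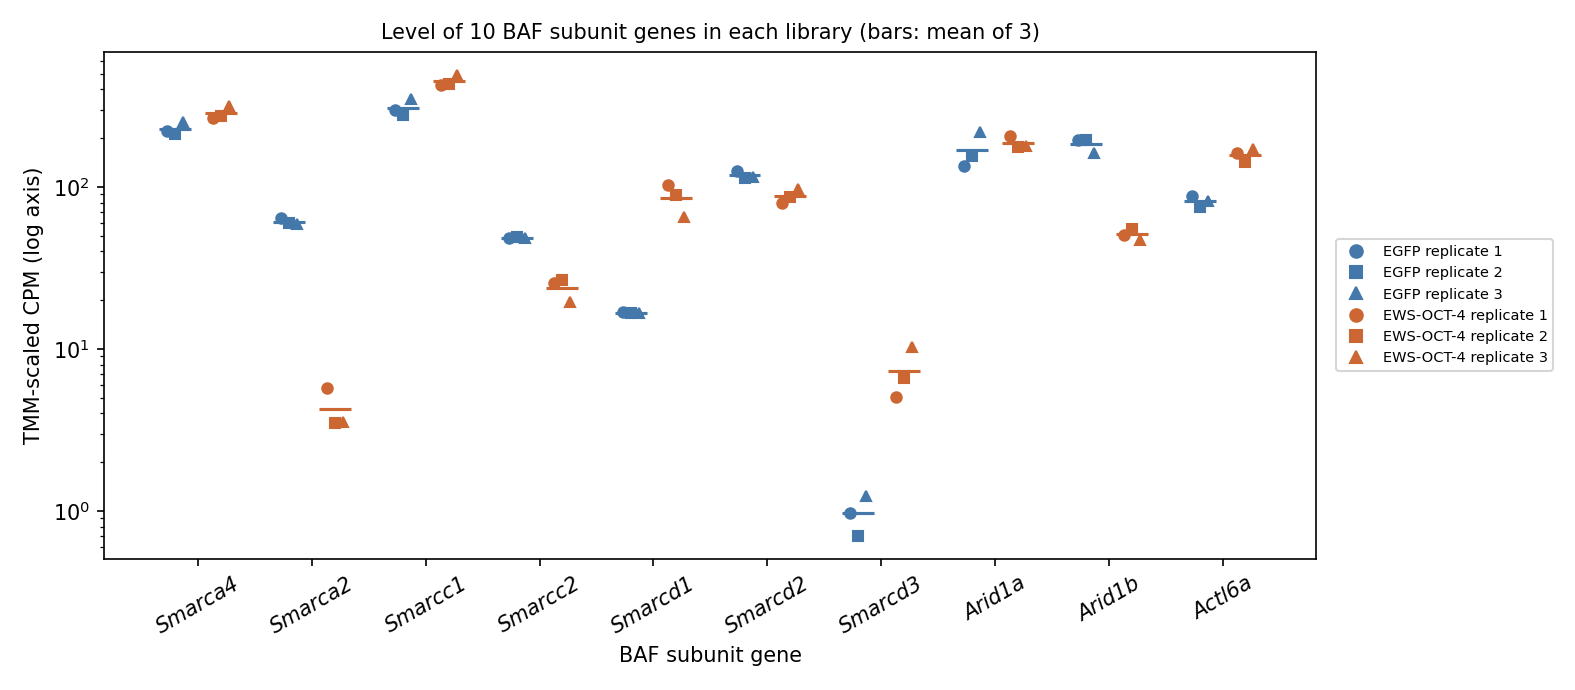
Level of each member in each of the 6 libraries, as TMM-scaled CPM on a log axis; marker shape gives the replicate number and bars the mean of 3 libraries. The lines are farthest apart for Smarca2 (61.0 against 4.25 CPM), Smarcd1 (16.7 against 85.5 CPM) and Smarcd3 (0.968 against 7.31 CPM), and overlap for Arid1a.

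The ATPases came first. Smarca4 encodes BRG1, the ATPase that embryonic stem cells need, and lies on chromosome 9 (21616169 to 21704230, plus strand; GENCODE M21, on GRCm38, the assembly of mm10). Its level was 220.2, 212 and 251 CPM in the EGFP libraries and 265, 274 and 317 CPM in the EWS-OCT-4 libraries. All EWS-OCT-4 values lay above all EGFP values, but the gap between the lines was smaller than the range within either. Smarca4 rose 1.25-fold (log2 fold change 0.32, SE 0.12, adjusted p = 0.0377, edgeR). The call was lost in 4 of 6 fits that left out 1 library (adjusted p = 0.132, 0.151, 0.0637 and 0.0524 without EGFP replicate 1, EGFP replicate 2, EWS-OCT-4 replicate 2 and EWS-OCT-4 replicate 3, edgeR), with library totals in place of TMM (0.0756) and with no filter (0.0592). Smarca2 encodes BRM, the ATPase that takes the place of BRG1 in many differentiated cells, and lies on chromosome 19 (26605050 to 26778322, plus strand). Its level was 64.0, 59.8 and 59.3 CPM in the EGFP libraries and 5.71, 3.51 and 3.52 CPM in the EWS-OCT-4 libraries, the latter from 62, 38 and 42 counts. An annotated antisense gene at its 3′ end, 4931403E22Rik, had at most 10 counts in any library. The groups were far apart, and EWS-OCT-4 replicate 1 was the highest of its line. Smarca2 fell 14.4-fold, the largest change among the members (log2 fold change -3.84, SE 0.21, adjusted p = 2.5e-07, edgeR). It stayed between -4.11 and -3.68 over 15 alternatives.

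Summed over both ATPase genes, the EGFP line had 288.9 ± 19.5 CPM and the EWS-OCT-4 line 289.6 ± 26.8 CPM (mean ± SD, n = 3), with overlapping values. The kit reads transcript 3′ ends, so a count stands for a transcript whatever its length and was not divided by length, although the yield of tags can still differ between genes. Smarca2 made up 22.5%, 22.0% and 19.1% of the counts of the pair in the EGFP libraries (exact 95% binomial intervals 21.2 to 23.9, 20.7 to 23.3 and 18.0 to 20.3). In the EWS-OCT-4 libraries its share was 2.11%, 1.26% and 1.10% (intervals 1.62 to 2.69, 0.896 to 1.73 and 0.794 to 1.48). Each interval covers counting error within its library only, not the spread between libraries. No molecular identifiers are given, so tags copied from the same molecule cannot be told apart, and the intervals may be too narrow. The log2 ratio of Smarca4 to Smarca2 within a library was 1.90 ± 0.16 for EGFP and 6.09 ± 0.50 for EWS-OCT-4, a difference of 4.19, or 18.3-fold. With 3 libraries against 3, the 2-sided exact permutation test gave p = 0.1, the smallest value this design allows (0.117 adjusted over the 7 pairs of paralogues compared).

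The sequences just before the ATPase genes are shown because this pair diverged most in level while sharing a catalytic role. They are the part of RefSeq's promoter windows (GRCm38.p6, 5′ to 3′) that lies before the GENCODE start of each gene, at chr9:21615919-21616168 (plus strand) for Smarca4 and chr19:26604910-26605049 (plus strand) for Smarca2. Capitals mark the GC box GGGCGG on either strand.
Smarca4: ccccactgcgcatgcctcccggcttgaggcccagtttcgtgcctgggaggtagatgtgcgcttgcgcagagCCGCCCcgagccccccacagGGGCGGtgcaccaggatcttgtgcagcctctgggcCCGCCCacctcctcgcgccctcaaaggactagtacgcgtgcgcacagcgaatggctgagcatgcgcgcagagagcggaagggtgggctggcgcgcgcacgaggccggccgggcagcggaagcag
Smarca2: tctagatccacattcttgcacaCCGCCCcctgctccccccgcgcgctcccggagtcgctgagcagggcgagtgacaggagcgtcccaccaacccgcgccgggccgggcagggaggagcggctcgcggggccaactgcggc
The windows of 250 bases before the RefSeq starts were 70.8% G+C with 25 CpG for Smarca4 and 68.4% G+C with 28 CpG for Smarca2, so these 2 genes with opposite changes had windows of similar base composition. The 11 windows of the 10 members (Arid1a has 2) held 56.4% to 81.6% G+C, against a median of 52.4% over 32851 windows, and 10 of the 11 were above the median of 6 CpG. Smarcd2 was the exception, with 4 CpG. The GC box was found in 10 windows (32.7% of all windows), and none held the octamer ATGCAAAT, the binding motif of OCT factors (1.60% of all windows, both strands searched). None held CCAAT, TTTGGCGC or CACGTG (33.8%, 0.417% and 6.02% of all windows), and 1, that of Smarcd2, held TATAAA (12.4%). These matches describe the letters only, and 8 of the 11 windows reach into the gene as GENCODE draws it. The windows of Smarcc1, Smarcd2, Smarcd3, Arid1b and Actl6a and 1 window of Arid1a lie wholly inside the gene, with all 250 bases.

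The scaffold pair moved apart as well. Smarcc1 encodes BAF155, a scaffold subunit prominent in stem cells, and lies on chromosome 9 (110117708 to 110240178, plus strand). Its level was 299, 278 and 348 CPM in the EGFP libraries and 427, 432 and 494 CPM in the EWS-OCT-4 libraries. The groups did not overlap, and the library numbered 3 was the highest in both lines. Smarcc1 rose 1.46-fold (log2 fold change 0.55, SE 0.13, adjusted p = 0.00296, edgeR). Smarcc2 encodes BAF170, its paralogue of differentiated and neural cells, and lies on chromosome 10 (128459248 to 128490482, plus strand). Its level was 48.0, 49.3 and 48.5 CPM in the EGFP libraries and 25.6, 26.6 and 19.5 CPM in the EWS-OCT-4 libraries. The EGFP values were within a CV of 1.33%, and all EWS-OCT-4 values lay well below them. Smarcc2 fell 2.04-fold (log2 fold change -1.03, SE 0.16, adjusted p = 0.00024, edgeR). Together the pair summed to 357 ± 35.6 CPM in EGFP and 475 ± 33.6 CPM in EWS-OCT-4 libraries, without overlap. The share of Smarcc2 went from 13.7% ± 1.42 in EGFP libraries to 5.09% ± 1.11 in EWS-OCT-4 libraries (SD, n = 3). The difference in the log2 ratio of Smarcc1 to Smarcc2 was 1.59 (exact permutation p = 0.1, adjusted 0.117).

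Among the SMARCD subunits, which link the remodeller to transcription factors, the balance shifted from Smarcd2 towards Smarcd1. Smarcd1 (BAF60A; chromosome 15, 99702129 to 99713991, plus strand) stood at 16.9, 16.7 and 16.6 CPM in the EGFP libraries. In the EWS-OCT-4 libraries it stood at 103, 88.9 and 64.8 CPM. The EGFP values were nearly equal, while the EWS-OCT-4 values spread widely, with replicate 3 the lowest. Smarcd1 rose 5.10-fold (log2 fold change 2.35, SE 0.19, adjusted p = 2.4e-06, edgeR). Smarcd2 (BAF60B, a subunit known from the granulocyte lineage; chromosome 11, 106263179 to 106272972, minus strand) was at 125, 114 and 115 CPM in the EGFP libraries and at 79.0, 87.2 and 96.9 CPM in the EWS-OCT-4 libraries. The lines did not overlap, and the values ran opposite to those of Smarcd1 across the EWS-OCT-4 libraries, with replicate 3 the highest. Smarcd2 fell 1.35-fold (log2 fold change -0.43, SE 0.13, adjusted p = 0.012, edgeR), a call lost without EWS-OCT-4 replicate 1 (adjusted p = 0.0604, edgeR) and with upper-quartile scaling (0.0845).

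Smarcd3 (BAF60C, known from heart and muscle; chromosome 5, 24590818 to 24624411, minus strand) was the lowest member in the EGFP line and the lowest but for Smarca2 in the EWS-OCT-4 line. Its counts were 13, 10 and 19 for EGFP (0.968, 0.701 and 1.23 CPM) and 55, 72 and 122 for EWS-OCT-4 (5.07, 6.64 and 10.2 CPM). The values did not overlap, and replicate 3 was the highest in both lines. Smarcd3 rose 7.48-fold (log2 fold change 2.90, SE 0.41, adjusted p = 0.00012, edgeR). Its annotated 3′ end overlaps Chpf2 on the other strand, and as the use of strand in the counting is not given, tags of the 2 genes may not be separated. Chpf2 moved the other way, from 34.0 ± 10.2 to 4.36 ± 0.368 CPM.

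Of the counts of the 3 Smarcd genes, Smarcd1 held 11.8%, 12.7% and 12.5% for EGFP and 55.0%, 48.7% and 37.7% for EWS-OCT-4. In the same order of lines, Smarcd2 held 86.9% ± 0.485 and 48.8% ± 7.09, and Smarcd3 held 0.713% ± 0.198 and 4.10% ± 1.67 (SD, n = 3). Smarcd2 was thus the leading gene of the family in every EGFP library, whereas in the EWS-OCT-4 line Smarcd1 led in replicate 1 and Smarcd2 in replicate 3. In EWS-OCT-4 replicate 2 the shares of Smarcd1 and Smarcd2 lay within counting error of each other (exact 95% intervals 46.4 to 50.9 and 45.5 to 49.9). The log2 ratio of Smarcd1 to Smarcd2 differed by 2.76 between the lines and that of Smarcd2 to Smarcd3 by -3.28 (exact permutation p = 0.1 each, adjusted 0.117). The ratio of Smarcd1 to Smarcd3, the genes that rose, differed by -0.53 with overlapping values (exact permutation p = 0.5, adjusted 0.5). The family summed to 136 ± 6.39 CPM in EGFP and 180.5 ± 7.73 CPM in EWS-OCT-4 libraries, without overlap.

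**Figure D2:**
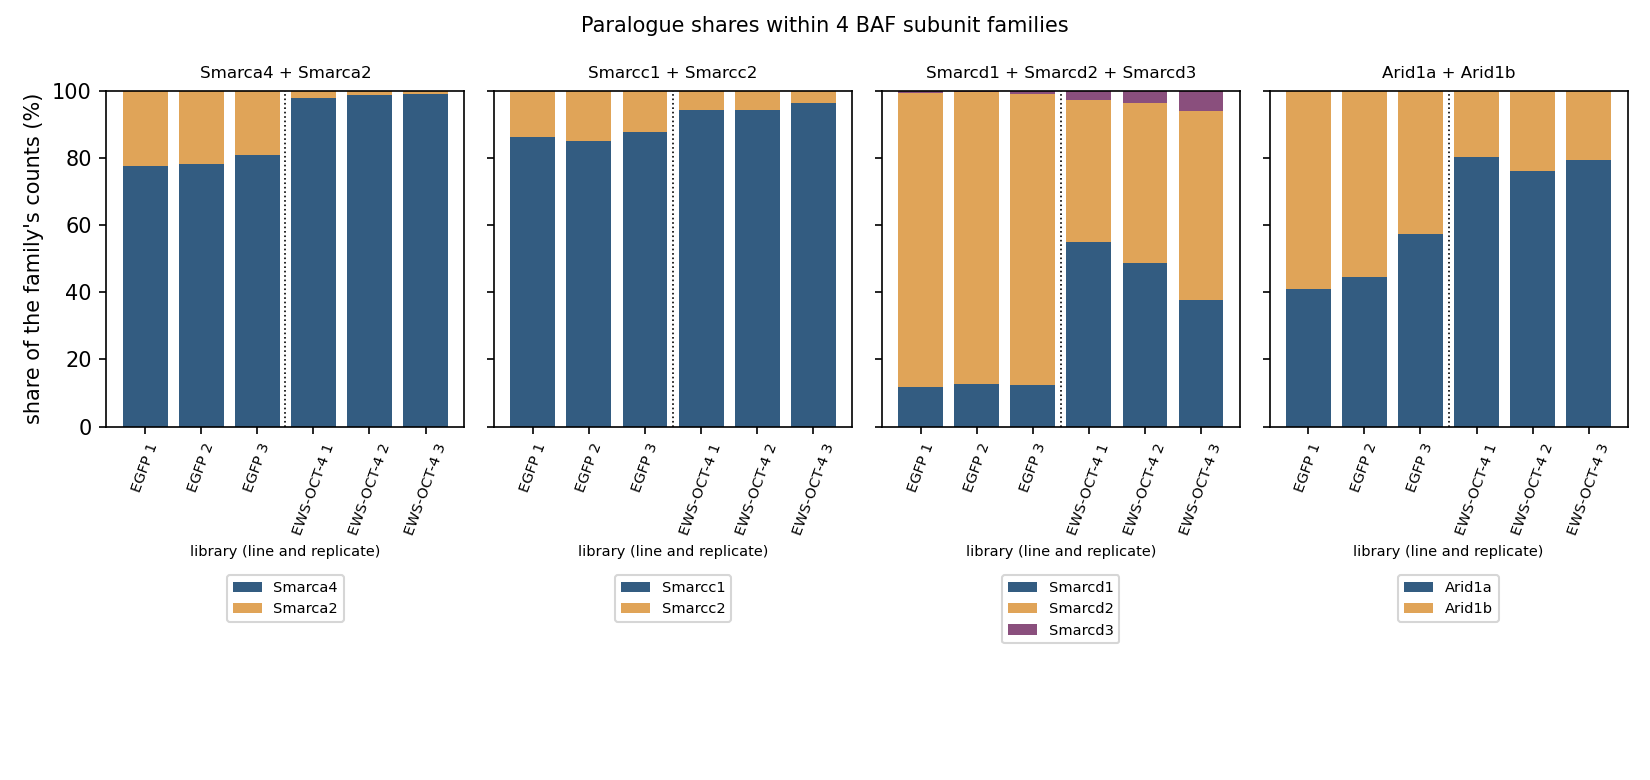
Share of each paralogue in the counts of its family, in percent, for each library; the dotted line parts the EGFP libraries (left) from the EWS-OCT-4 libraries (right). The share of Smarca2 falls from 19.1% or more to 2.11% or less, and Smarcd1 goes from at most 12.7% to at least 37.7%.

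The ARID subunits bind DNA and mark the canonical form of the complex, which carries either ARID1A or ARID1B. Arid1a (chromosome 4, 133679008 to 133756769, minus strand) was at 135, 155 and 217 CPM in the EGFP libraries and at 207, 176 and 179 CPM in the EWS-OCT-4 libraries. The lines overlapped, because EGFP replicate 3 was above every EWS-OCT-4 library. Arid1a did not pass the test (log2 fold change 0.15, SE 0.17, adjusted p = 0.476, edgeR). Without EGFP replicate 3 it passed (0.36, adjusted p = 0.0377, edgeR), as it did in the libraries numbered 1 and 2 alone (0.42, adjusted p = 0.00024), and without EGFP replicate 1 the value was -0.0057. Arid1b (chromosome 17, 4994332 to 5347656, plus strand) was at 194, 194 and 162 CPM in the EGFP libraries and at 50.6, 55.0 and 47.0 CPM in the EWS-OCT-4 libraries. The lowest EGFP value was far above the highest EWS-OCT-4 value. Arid1b fell 3.61-fold (log2 fold change -1.85, SE 0.13, adjusted p = 1.2e-06, edgeR).

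The share of Arid1a in the pair was 41.1%, 44.5% and 57.2% for EGFP and 80.4%, 76.2% and 79.2% for EWS-OCT-4. Arid1b was the more counted gene in EGFP replicates 1 and 2, and Arid1a in the other 4 libraries. The log2 ratio of Arid1a to Arid1b was -0.14 ± 0.49 and 1.88 ± 0.18, a difference of 2.02 (exact permutation p = 0.1, adjusted 0.117). Unlike the ATPase pair, the summed level of the ARID1 pair was lower in the EWS-OCT-4 line, at 238 ± 17.0 CPM against 353 ± 25.0 CPM, without overlap.

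Actl6a encodes BAF53A, the actin-like subunit of stem and progenitor cells that neurons replace with BAF53B, the product of Actl6b. Actl6a (chromosome 3, 32706298 to 32726973, plus strand) was at 87.6, 75.0 and 81.7 CPM in the EGFP libraries and at 161, 143 and 171 CPM in the EWS-OCT-4 libraries. The groups were separated by more than the range within either. Actl6a rose 1.94-fold (log2 fold change 0.96, SE 0.13, adjusted p = 8.2e-05, edgeR). Mrpl47, which overlaps its 3′ end on the other strand, also rose, from 22.9 ± 2.34 to 61.2 ± 9.99 CPM, so its tags cannot be set aside without knowledge of the strand. Actl6b was too low to be tested, with 0, 1 and 0 counts for EGFP and 14, 3 and 4 for EWS-OCT-4. The depth-scaled ratio was 25.9 (exact 95% interval 4.17 to 1071, counting error only), and 12.7 (1.63 to 572) without EWS-OCT-4 replicate 1, which held most of the counts. It was 17.8 and 16.7 without EGFP replicates 1 and 3. Without EGFP replicate 2, which held the only EGFP count, Actl6b was at least 2.88-fold higher against a floor of 3 counts per library. Actl6b was at most 0.793% of the counts of the pair in any library, so Actl6a supplied nearly all of them in both lines.

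**Figure D3:**
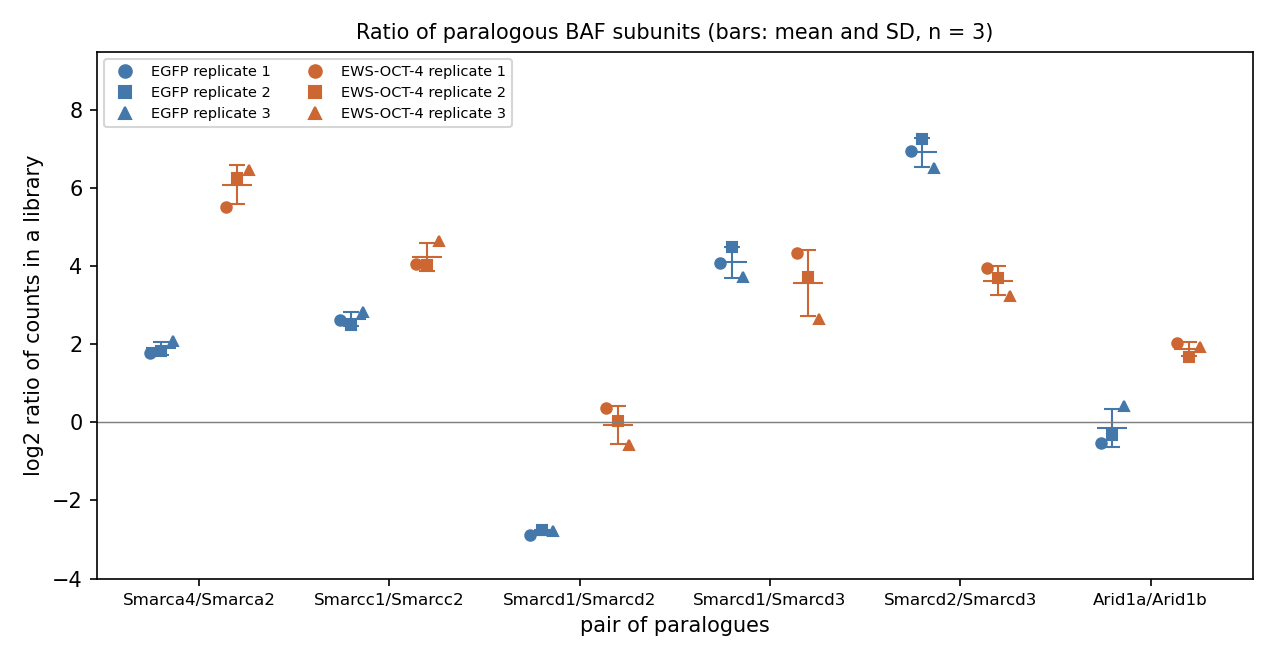
Log2 ratio of the counts of 2 paralogues within each library, with mean and SD of 3 libraries; a value of 0 means equal counts. The lines separate for every pair shown except Smarcd1/Smarcd3, and the Smarcd1/Smarcd2 ratio of the EWS-OCT-4 line straddles 0.

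Beyond the members, the other genes of the BAF family moved in both directions. Of 21 listed genes 19 were tested, of which 7 rose, 6 fell and 6 did not pass, a share of 68.4% called against 67.4% of all genes. Their median log2 fold change was -0.25. The largest changes were in the DPF family, whose members read histone tails in the canonical complex and whose choice is known to differ between stem cells, neurons and muscle. Dpf3 fell from 12.8 ± 0.938 to 0.648 ± 0.165 CPM (log2 fold change -4.28, adjusted p = 1.4e-06, edgeR), and Dpf1 rose from 3.76 ± 1.03 to 16.1 ± 3.73 CPM (2.10, adjusted p = 0.00011, edgeR). Dpf2, the broadly expressed member, also fell. Its share of DPF counts was 88.9% ± 0.975 for EGFP and 84.3% ± 5.86 for EWS-OCT-4, with overlapping values. The EWS-OCT-4 shares were 87.7%, 87.6% and 77.5%, with replicate 3 the lowest. The family was thus led by the same gene in both lines.

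The core and accessory subunits did not share 1 direction. Smarce1 fell (log2 fold change -0.59), and Ss18l1, Bcl7b and Bcl7c did not pass. Smarcb1, a core subunit lost in rhabdoid tumours, rose from 64.0 ± 2.71 to 105 ± 7.44 CPM (log2 fold change 0.72, adjusted p = 0.00047, edgeR), and Ss18, the gene fused in synovial sarcoma, from 103 ± 12.1 to 169 ± 23.2 CPM (0.72). Bcl7a rose from 4.43 ± 0.780 to 13.6 ± 2.27 CPM (1.61). Bcl11b, a zinc finger protein found with BAF complexes, was counted 60, 19 and 19 times for EGFP and 96, 72 and 71 times for EWS-OCT-4. Its log2 fold change of 1.61 (adjusted p = 0.0137, edgeR) was 2.46 without EGFP replicate 1 and lost its call without EGFP replicate 2 (adjusted p = 0.0522). Actb, which encodes the β-actin that sits in the complex but mostly forms the cytoskeleton, fell from 7625 ± 249 to 3841 ± 495 CPM (-0.99, adjusted p = 5.4e-05).

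The 3 forms of the complex are told apart by their own subunits. Of the 4 genes listed for PBAF, Arid2 and Pbrm1 fell, Brd7 rose and Phf10 did not pass (log2 fold change -0.24). Arid2 went from 85.8 ± 11.7 to 47.7 ± 3.19 CPM (-0.85, adjusted p = 0.00048, edgeR). Of the 3 genes listed for the non-canonical complex, Gltscr1l (now Bicral) rose from 17.1 ± 0.854 to 58.0 ± 3.34 CPM (1.76, adjusted p = 2.6e-06, edgeR). Its paralogue Gltscr1 (now Bicra) and Brd9 did not pass, at -0.34 and -0.32, and Gltscr1 had only 8, 8 and 32 counts for EWS-OCT-4. Annotated genes on the other strand lie at the 3′ ends of Gltscr1l, Dpf1, Phf10, Pbrm1 and Brd9. As the use of strand in the counting is not given, tags of these neighbours may not be separated.

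**Figure D4:**
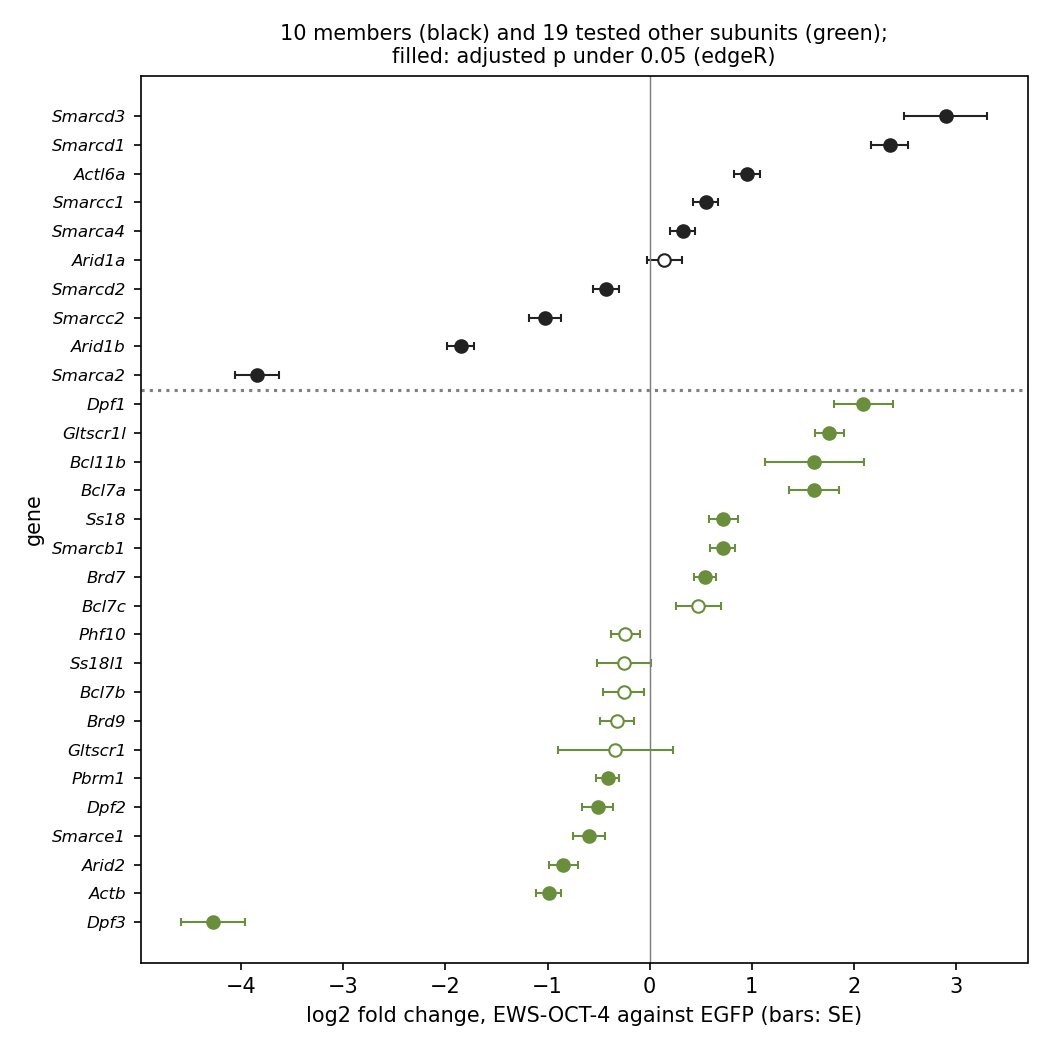
Log2 fold change of the EWS-OCT-4 line against the EGFP line with its SE, for the 10 members (black) and 19 tested other subunits (green); filled points passed an adjusted p of 0.05 (edgeR). The members range from -3.84 (Smarca2) to 2.90 (Smarcd3), and the other subunits from -4.28 (Dpf3) to 2.10 (Dpf1).

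ATPases of the other remodelling families gave a comparison for Smarca4 and Smarca2. Of 18 tested, 10 rose, 1 fell and 7 did not pass, a share of 61.1% called against 67.4% of all genes. All genes split nearly evenly, with 33.3% called higher and 34.1% lower, whereas the called ATPases were mostly higher. The 1 ATPase that fell was Chd7 (log2 fold change -0.57). Without EWS-OCT-4 replicate 3 the number of ATPases that fell was 3, in a fit that called 67.5% of all genes (34.8% lower). Smarca1 and Smarca5 are the paired ATPases of the ISWI family. Smarca1, counted 2, 8 and 24 times for EGFP, rose from 0.756 ± 0.725 to 22.2 ± 4.12 CPM (log2 fold change 4.82, adjusted p = 1.5e-05, edgeR, and 5.90 without EGFP replicate 3). Smarca5 rose from 92.7 ± 11.7 to 181 ± 11.5 CPM (0.96). The CHD family members Chd5 and Chd9 rose by 4.53 and 3.58 on the log2 scale, and Chd4, the main ATPase of the NuRD complex, by 0.57 (from 317 ± 18.4 to 470 ± 27.4 CPM). Hells, which supports DNA methylation, rose from 63.0 ± 13.2 to 453 ± 16.1 CPM (2.84). Atrx, a remodeller of heterochromatin, rose from 139 ± 43.1 to 352 ± 148 CPM (1.35, adjusted p = 0.002, edgeR). Replicate 3 was the highest for Atrx in both lines (188 and 522 CPM), and without EWS-OCT-4 replicate 3 its log2 fold change was 0.95.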

How the data were processed

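RNA of 6 libraries was sequenced from transcript 3′ ends. Per the labels' protocols, 500 ng of total RNA entered the Lexogen Quant-Seq kit. The submitters' processing notes name Bowtie2, edgeR and mm10, without versions. For the counting tool, annotation and strand setting the sources used here give nothing. The deposited values are whole-number counts per gene symbol, not scaled. Of 23238 symbols, 35 occurred more than once and were summed; none of them is a listed gene.

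TMM factors were 0.971 to 1.03. Low genes were removed with filterByExpr at a minimum count of 10 and a total of 15. The lines were compared with the robust quasi-likelihood F test of edgeR 4.0.16 (2-sided), and p-values were adjusted by Benjamini-Hochberg over the 13467 genes left. The SE is the log2 fold change over the square root of F. Ratios of paralogues used counts plus 0.5 and exact permutation tests (SciPy 1.17.1). At a depth of 10978025 to 14935887 counts, 1 count is worth 0.0670 to 0.0911 CPM before the TMM factor is applied.

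Members and lists were chosen with earlier results of these data known. The text names all members. Of the other BAF-family genes it gives values for the 8 called ones with the largest change plus Actl6b and Smarcb1. For the other ATPases it gives those of the 5 called ones with the largest change plus Smarca5 and Chd4. Other genes of these lists are named without full values or are not named. Positions are from GENCODE M21 (GRCm38) and sequences from RefSeq (GRCm38.p6), matched by symbol for 10 of 10 members.

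The gene-wise fit was first tested on simulated counts, with 200 genes changed. It recovered 73% of 2-fold and 89% of 4-fold changes, and 6.9% of its calls were false. In the data 67.4% of genes were called, so the simulation does not give the error rate of this comparison. Alternatives were leaving out each library, a replicate block, other scalings and filters, limma-voom (limma 3.58.1), DESeq2 1.42.0, libraries 1 and 2 alone and, for ratios, 5 added counts.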

Additional observations from a re-analysis of the deposited data

How the results depend on the processing

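Over 15 alternatives, 4 to 6 members rose and 3 to 4 fell. Only 9 members were tested where a mean of at least 10 CPM was required. The calls over all genes moved with the setting too. Without EGFP replicate 1, 3978 of 13778 genes rose and 4194 fell. Upper-quartile scaling gave 5119 of 13467 higher and 4061 lower, and no filter gave 4602 of 18933 higher and 4867 lower. Smarca2, Smarcc1, Smarcc2, Smarcd1, Arid1b and Actl6a kept their direction and their call in all 15 alternatives, and Smarcd3 in the 14 that tested it. Smarca4, Smarcd2 and Arid1a did not, as given beside them; Arid1a reversed to -0.0057 without EGFP replicate 1, a value near 0, and was 0.36 without EGFP replicate 3. With a mean of at least 10 CPM required, 4 other BAF-family genes rose, of only 13 tested. In that fit 3138 of 8923 genes rose over all genes and 3205 fell. Of the 18 other ATPases, 1 to 3 fell when single libraries were left out, and 3 in libraries 1 and 2 alone. Over all genes, 34.8% were called lower without EWS-OCT-4 replicate 3, the fit with 3, and 38% in libraries 1 and 2 alone. The cause of the change in the number of ATPases was not tested. The change in the log2 ratio of Actl6a to Actl6b was -2.48, and -0.47 with 5 counts added, since Actl6b had 0 or 1 count per EGFP library. Upper-quartile scaling shifted the median of all genes by 0.16 and turned no member's direction.

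Replicate numbers are shared between the lines by title only. Deviations from the line mean correlated at 0.04, 0.05 and 0.15 (Pearson, 13467 genes) for numbers 1, 2 and 3, so the numbers were not taken as pairing; only number 3 correlated best with its own number. With a replicate block 5 members rose and 4 fell, 7 and 6 of the other BAF-family genes and 10 and 1 of the other ATPases, the same counts as without it; over all genes 4387 rose and 4581 fell, against 4482 and 4591. Depth limits Smarcd3, Bcl11b, Dpf3, Gltscr1, Chd5, Smarca1 and Actl6b, each with under 25 counts in at least 1 library.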
